A study of Rattus norvegicus with 16 samples.

Results

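The cytosolic ribosomal protein genes are described here in kidney cortex of rats given the iron chelate Fe-NTA (ferric nitrilotriacetate), which injures the proximal tubule by oxidation. Members were chosen by name alone: probes whose gene name in the scanner files is Rpl or Rps with digits and at most 1 more letter or an x or l ending, together with Rplp0, Rplp1, Rplp2 and Rpsa, without the Rps6k kinases. This gave 81 genes read by 202 probes, of 34742 genes and 45598 probes in all. Of these, 49 belong to the large subunit and 32 to the small subunit. Expression was measured on 16 single-colour Agilent arrays of cortex from male Jcl:SD rats, 8 from BRCA1+/- animals (heterozygous from here on) and 8 from wild-type animals. Each genotype had 3 arrays after 1 week of Fe-NTA, 3 arrays after 3 weeks and 2 arrays of control cortex labelled as normal. Injections into the peritoneum began at 4 weeks of age, 5 per week, with 5 and then 7 mg iron/kg in the first week and 10 mg iron/kg afterwards, and the tissue was collected 48 h later than the final injection. The protocol started with 18 heterozygous and 17 wild-type rats. How the arrayed animals were chosen, and the kind of BRCA1 mutation, are not given in the sources used here.

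Cytosolic ribosomes are built in the nucleolus and cytoplasm from ribosomal RNA and roughly equal numbers of each ribosomal protein, and they translate nearly all cellular mRNA. Most ribosomal protein mRNAs begin with a C followed by a stretch of pyrimidines, the terminal oligopyrimidine (TOP) tract, through which growth signalling by mTOR controls their translation. In the kidney the proximal tubule is rich in mitochondria, whose own ribosomes use a separate set of nuclear-encoded proteins.

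The annotated transcription starts show this feature in part of the genes. RefSeq promoter sequences of the GRCr8 build were found for 64 of the 81 members. The annotated start base was a C with only pyrimidines (C or T) on from it, at least 5 bases in all counting that C, in 22 of the 64 (34.4%), whether or not the pyrimidines also reached back before it, against 881 of all 33469 promoters (2.63%). A run of at least 5 pyrimidines that opens with C within 5 bases of the start, on either side, was present in 38 of the 64 members (59.4%), against 5704 of all promoters (17.0%). The search covered the transcribed strand only, and a match or its absence describes these letters and not the use of the site. The 4 starts shown first belong to genes with some of the larger rises described below, and the 2 after them show members without such a run. Each line holds the 15 bases before the annotated start and the first 15 bases from it, 5′ to 3′ on the transcribed strand, with the run of pyrimidines in capitals.
Rps7, chr6:50999431-50999460, minus strand: tcgcgagagctgtgtCTCTTTCTaagccgg
Rpl10a, chr20:6390518-6390547, plus strand: gaaaccttctgCCTTCTTTTCCggttcccg
Rplp0, chr12:46718376-46718405, minus strand: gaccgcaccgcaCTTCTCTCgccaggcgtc
Rpl39, chrX:121195882-121195911, minus strand: tcttctaatcgcgttCTTCCggcctgtcct
Rps19, chr1:89608673-89608702, plus strand: cccgacttgtgcgcccgggaaaccccgtcg
Rps27l, chr8:76443643-76443672, plus strand: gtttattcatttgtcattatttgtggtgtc
In Rps7 and Rpl39 the marked run opens at the annotated start, and in Rpl10a and Rplp0 it opens a few bases earlier and runs across the start base, which is also a C. Of the 15 members that rose in heterozygous cortex at 3 weeks (below), 11 had a promoter sequence and 6 of those had a run at or near the start, against 32 of the other 53 with a sequence.

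Values are on a log2 scale relative to the 75th percentile of each array's processed signal, so 0 is that percentile and 1 unit is a doubling. Between 32.8% and 60.5% of probes were well above background on an array, and the arrays' 75th percentiles lay between 20.1 and 78.5 intensity units. Brca1 itself, read by 2 probes, was well above background on 13 of the 16 arrays, and its level did not pass the test between the genotypes in controls, at 1 week or at 3 weeks (limma, adjusted p 0.999, 0.691 and 0.879). It read -0.04 and -3.44 in heterozygous and -3.31 and -2.70 in wild-type controls. Whether its probes lie in the altered part of the gene is not given, so they do not check the genotype. The wild-type array of replicate 3 at 1 week stood apart: it correlated with its 2 partners at 0.905 and 0.908 over all tested genes, against 0.964 to 0.981 between all other arrays of the same group, so results that rest on it are also given without it. The labels do not say that arrays of a group came from different rats, so p-values measure the spread between these samples. Age, vehicle and sampling time of the controls are not given, so treatment and age cannot be told apart, and neither can time, age and dose between 1 and 3 weeks.

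**Figure D1:**
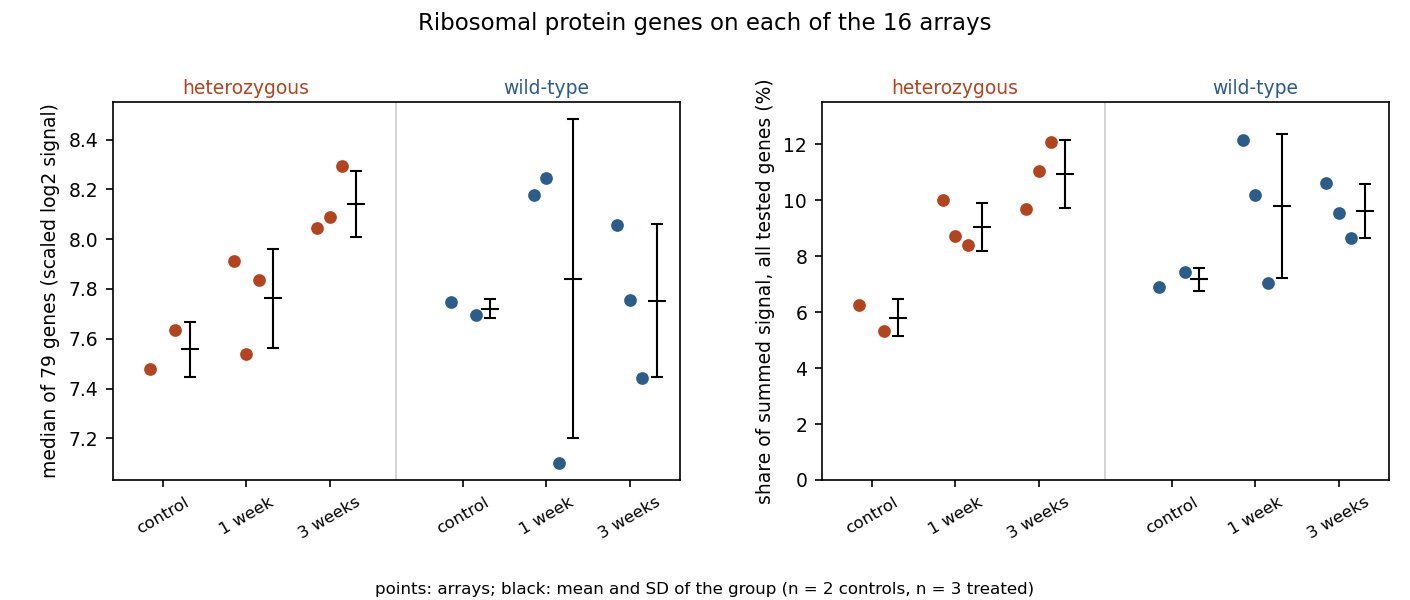
Ribosomal protein genes by array, in 6 groups of 2 or 3 arrays, heterozygous groups left of the wild-type ones. The left panel gives the median scaled log2 value of the 79 tested genes on each array and the right panel their share of the summed signal of all tested genes in percent, with a black bar at each group's mean and SD. The 3 heterozygous arrays at 3 weeks lie above both heterozygous controls in both panels, while the wild-type arrays at 1 week spread between 7.10 and 8.24 in the median.

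Of the 81 members, 79 passed the filter (in 1 group or more, all arrays well above background), and all 79 were well above background on all 16 arrays. The 2 others are tissue-restricted paralogs. Rpl3l, which replaces Rpl3 in striated muscle of mice, was well above background on 0 arrays, and Rpl39l1, named in the files as Rpl39l, whose mouse counterpart is used in testis, was so on 1 array. In heterozygous cortex the 79 genes together gave 5.79% ± 0.67 of the summed signal of all tested genes in controls (SD, n = 2), 9.04% ± 0.85 after 1 week and 10.9% ± 1.20 after 3 weeks (SD, n = 3 each). In wild-type cortex the share was 7.16% ± 0.40 in controls (n = 2), 9.79% ± 2.58 after 1 week and 9.60% ± 0.97 after 3 weeks (n = 3 each). The share of every treated array was above that of both controls of its genotype, except for 1 array at 1 week in the wild type with 7.04%, which lay between its controls at 6.88% and 7.44%. The median level of the members in heterozygous cortex was 7.48 and 7.64 in controls, 7.91, 7.54 and 7.83 after 1 week and 8.05, 8.09 and 8.29 after 3 weeks. All arrays at 3 weeks lay above all others of this genotype, and 1 array at 1 week lay between the controls. In wild-type cortex it was 7.75 and 7.69 in controls, 8.18, 8.24 and 7.10 after 1 week and 8.06, 7.76 and 7.44 after 3 weeks, so both treated groups had arrays above and below the controls. In a bulk sample such as this, a change in the mix of cells and a change of RNA per cell cannot be told apart.

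In heterozygous cortex after 3 weeks of Fe-NTA, 15 of 79 ribosomal protein genes rose (19.0%) and 0 fell, against 9.37% of all 16024 tested genes that rose and 6.52% that fell (limma, Benjamini-Hochberg adjusted p under 0.05, two-sided). Their median log2 fold change was 0.74, which is 1.67-fold, against 0.01 over all tested genes, and 74 of the 79 values lay above 0. Both subunits had calls: 9 of 47 large-subunit genes rose with a median over all 47 of 0.74, and 6 of 32 small-subunit genes rose with a median over all 32 of 0.77. For 71 of the 79 genes (89.9%) all 3 treated arrays lay above both controls, against 32.1% of all tested genes. At an unadjusted p under 0.05 the count of members was 46 (58.2%), against 33.5% of all genes. The number of calls depended on single arrays. It was 7, 3 and 2 without the first, the second and the third treated array, and the shares of all genes in these fits are not given here. It was 9 without the second or the third wild-type array at 3 weeks, where 8.18% and 8.54% of all genes rose. Without the wild-type array that stood apart 50 members rose and 1 fell (Rpl10l), against 16.7% and 12.8% of all genes. Without the first or the second heterozygous control only 1 control was left, and the median was 0.71 or 0.74. The median stayed between 0.69 and 0.77 over all these omissions. With slide as a block 11 members rose (9.37% of all genes), with quantile normalization 44 (9.46%) and with normexp background correction 7 (5.29%), while 0 were called when dim probes were not filtered out (2% of all genes rose).

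**Figure D2:**
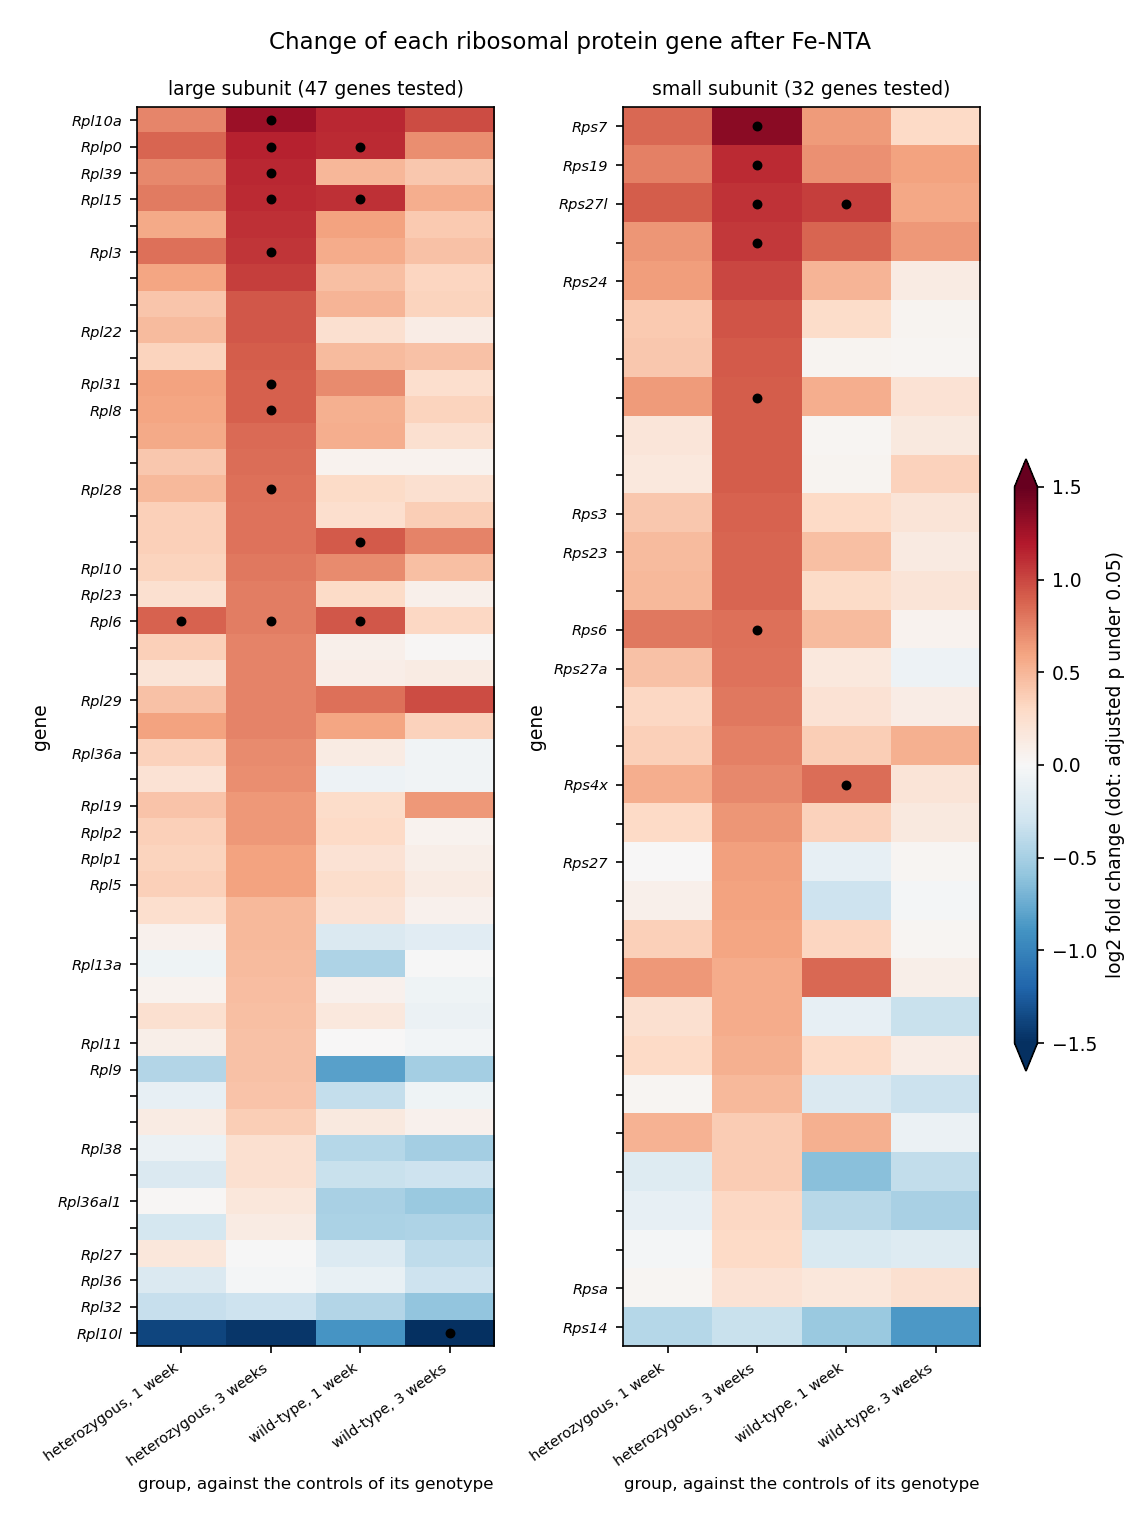
Log2 fold change of each tested ribosomal protein gene against the controls of its genotype, as colour from blue (lower) to red (higher), in heterozygous cortex at 1 and 3 weeks and then wild-type cortex at 1 and 3 weeks. Genes of the large subunit (47) and the small subunit (32) are ordered by the value in heterozygous cortex at 3 weeks, names are given for genes described in the text, and dots mark an adjusted p under 0.05 (15 genes in that column). Colours end at 1.5 in both directions, which Rpl10l passes in wild-type cortex at 3 weeks with -1.94.

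The largest rises in heterozygous cortex at 3 weeks were in proteins of both subunits. Rps7, a small-subunit protein mutated in some people with Diamond-Blackfan anaemia, read 5.17 and 5.45 in controls, 6.43, 5.92 and 6.15 after 1 week and 6.30, 6.74 and 6.96 after 3 weeks. All 6 treated arrays lay above both controls, and the rise at 3 weeks was 1.36 ± 0.40 (log2 fold change ± SE, adjusted p 0.0319). Rpl10a, a protein of the large subunit's mobile L1 stalk, read 5.64 and 5.79 in controls, 6.95, 5.94 and 6.45 after 1 week and 6.67, 6.91 and 7.40 after 3 weeks. The 3-week arrays were above both controls by 1.28 ± 0.42 (adjusted p 0.0485), and 1 array at 1 week stayed close to the controls. Rpl39, a small protein that lines the exit tunnel for the nascent chain, read 6.65 and 6.73 in controls, 7.71, 7.07 and 7.45 after 1 week and 7.77, 7.80 and 7.90 after 3 weeks. Its 3 arrays at 3 weeks were close together and well above the controls, a rise of 1.13 ± 0.29 (adjusted p 0.0181), and its 4 probes gave rises between 1.13 and 1.26. Rps19, the small-subunit protein most often mutated in Diamond-Blackfan anaemia, read 8.07 and 7.94 in controls, 8.82, 8.47 and 8.99 after 1 week and 8.97, 9.15 and 9.24 after 3 weeks, and rose by 1.12 ± 0.32 at 3 weeks (adjusted p 0.0311). No treated array of Rps19 overlapped with the controls of this genotype.

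Rpl15, a large-subunit protein, read 7.48 and 7.71 in heterozygous controls, 8.55, 8.08 and 8.47 after 1 week and 8.46, 8.71 and 8.97 after 3 weeks. It rose by 1.12 ± 0.32 at 3 weeks (limma, adjusted p 0.0289), with all treated arrays above both controls. Outside Rplp0, described next, the other 9 calls of this comparison included Rps27l, Rpl3, Rpl31, Rpl8, Rpl28, Rps6 and Rpl6, with rises between 0.77 (Rpl6) and 1.09 (Rps27l) and adjusted p between 0.0145 (Rpl3) and 0.0485 (Rpl31). Apart from Rps27l, Rpl3 and Rpl6, these were named after their values were seen. Rpl3, a protein close to the peptidyl transferase centre, read 5.79 and 5.45 in controls, 6.30, 6.36 and 6.67 after 1 week and 6.75, 6.80 and 6.53 after 3 weeks, a rise of 1.07 ± 0.26 at 3 weeks. Rps6, the substrate of the S6 kinases downstream of mTOR, read 5.16 and 5.17 in heterozygous controls, 5.80, 5.92 and 6.16 after 1 week and 5.92, 6.11 and 5.96 after 3 weeks. The rise of Rps6 at 3 weeks was 0.83 ± 0.24 (adjusted p 0.0313), and none of its treated arrays overlapped with the controls.

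The stalk of the large subunit, which recruits elongation factors, is built from Rplp0, Rplp1 and Rplp2, and Rpl5 and Rpl11 form a particle with 5S ribosomal RNA that can bind the p53 regulator Mdm2. Of these 5 genes 1 rose in heterozygous cortex at 3 weeks and 1 in wild-type cortex at 1 week, in both cases Rplp0. Rplp0, the stalk base, read 8.27 and 8.45 in heterozygous controls, 9.44, 8.92 and 9.32 after 1 week and 9.29, 9.48 and 9.78 after 3 weeks. In wild-type cortex it read 8.45 and 8.47 in controls, 9.89, 9.79 and 9.05 after 1 week and 9.58, 9.13 and 8.77 after 3 weeks. All 12 treated arrays lay above all controls of their genotype, with a rise of 1.16 ± 0.31 in heterozygous cortex at 3 weeks (adjusted p 0.0219) and of 1.12 ± 0.31 in wild-type cortex at 1 week (adjusted p 0.0146). Its partners Rplp1 and Rplp2 did not pass the test in any comparison with controls: their log2 fold changes at 3 weeks were 0.61 and 0.65 in heterozygous cortex and 0.08 and 0.06 in wild-type cortex. Rpl5 had 0.60 in heterozygous and 0.12 in wild-type cortex at 3 weeks, and Rpl11 had 0.44 and -0.04, none past the test. For Rpl11 the heterozygous arrays at 3 weeks read 8.08, 8.18 and 8.30 and the controls 7.79 and 7.71, so these groups did not overlap.

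**Figure D3:**
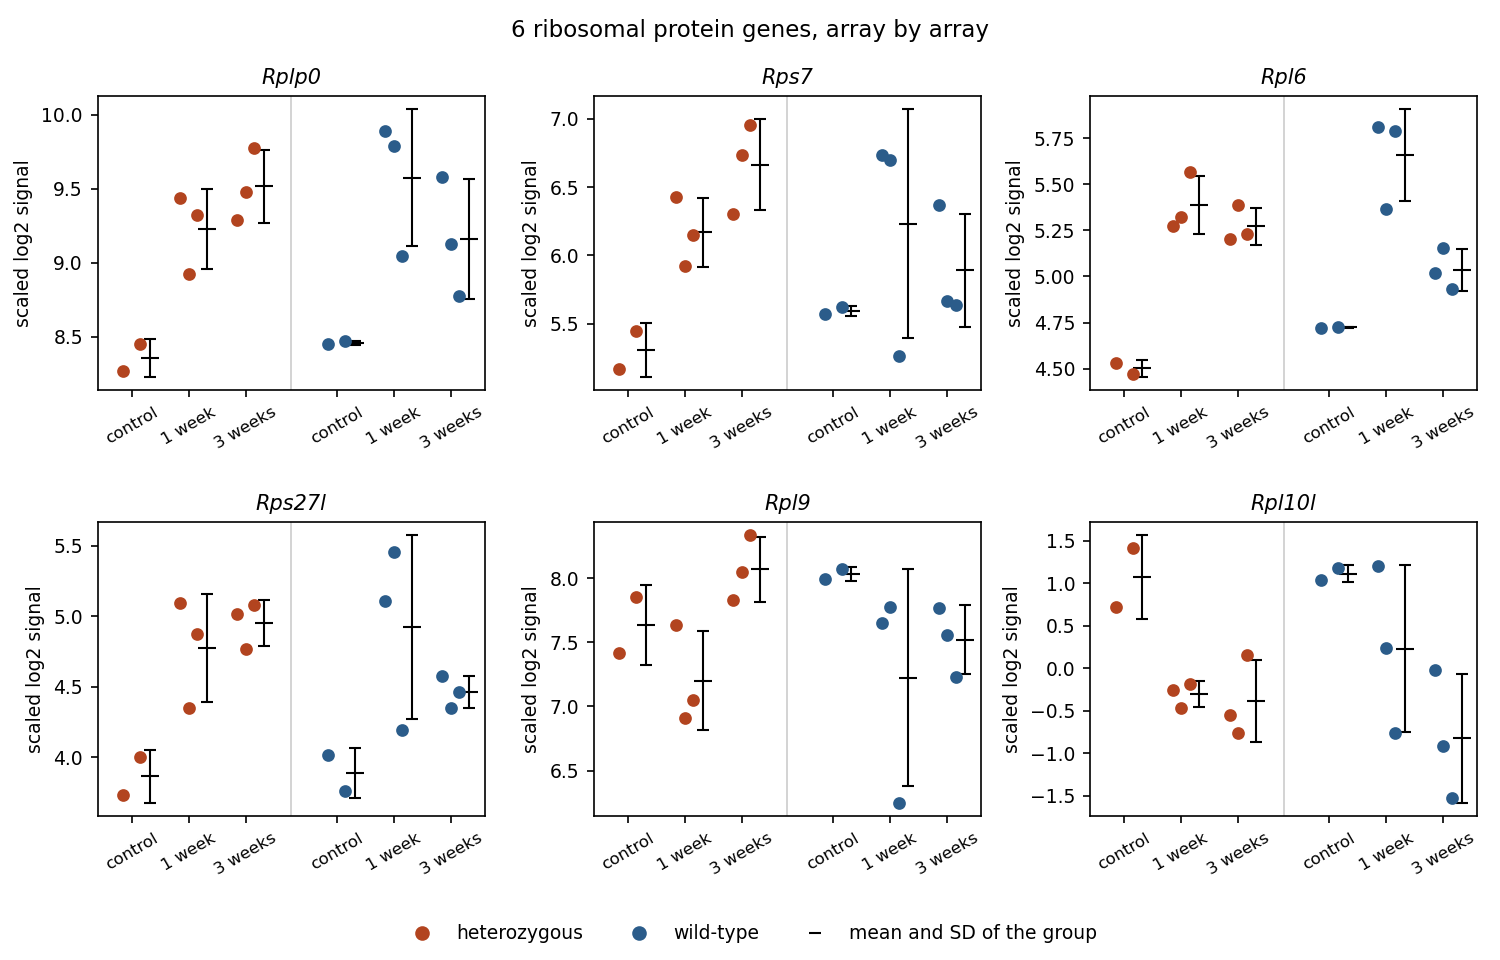
Scaled log2 values of 6 ribosomal protein genes on each of the 16 arrays, in panels by gene, with black bars for each group's mean and SD and heterozygous groups left of the wild-type ones. In Rplp0 all treated arrays lie above the controls of their genotype, in Rps7 the third wild-type array at 1 week reads 5.27 while its partners read 6.73 and 6.70, and Rpl10l runs below its controls on the heterozygous treated arrays.

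After 1 week in heterozygous cortex, 1 of 79 members rose (1.27%) and 0 fell, against 4.27% of all tested genes that rose and 3.2% that fell. The median was 0.36 (all tested genes -0.03), 66 of 79 values lay above 0, and for 39 genes (49.4%) the treated arrays were all above the controls, against 21.2% of all genes. The 1 call was Rpl6, a large-subunit protein. In heterozygous cortex Rpl6 read 4.53 and 4.47 in controls, 5.27, 5.32 and 5.57 after 1 week and 5.20, 5.39 and 5.23 after 3 weeks. In wild-type cortex Rpl6 read 4.72 and 4.73 in controls, 5.81, 5.37 and 5.79 after 1 week and 5.02, 5.15 and 4.93 after 3 weeks. Every treated array of Rpl6 lay above the controls of its genotype, with rises of 0.89 ± 0.22 at 1 week (limma, adjusted p 0.0274) and 0.77 ± 0.22 at 3 weeks (0.0311) in heterozygous cortex and 0.93 ± 0.22 at 1 week in wild-type cortex (0.00648). The single call at 1 week was absent without either heterozygous control or without the third array at 1 week. Without the wild-type array that stood apart, 8 members rose (Rps27l, Rpl6, Rplp0, Rps7, Rpl3, Rps6, Rps19 and Rpl39) and 1 fell (Rpl10l). Of all genes 7.78% rose and 6.64% fell in that fit.

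In wild-type cortex after 1 week, 6 of 79 members rose (7.59%) and 0 fell, against 12.8% of all tested genes that rose and 14.3% that fell. The median was 0.26 (all tested genes -0.02) with 58 of 79 values above 0, and 14 genes (17.7%) had treated arrays all above the controls, against 20.2% of all genes. The 6 included Rplp0, Rpl15, Rps27l, Rpl6 and Rps4x, with rises between 0.83 and 1.12. Rpl15 in wild-type cortex read 7.75 and 7.67 in controls and 9.17, 9.0 and 8.26 after 1 week, 1.10 ± 0.32 higher (limma, adjusted p 0.0186). A second probe of Rpl15, well above background on 15 arrays, gave 0.01 in this comparison and 1.16 in heterozygous cortex at 3 weeks, so the probes of this gene disagreed at 1 week. Rps4x, a small-subunit protein that is X-linked in mammals, read 5.18 and 5.37 in controls and 6.02, 5.93 and 6.38 after 1 week (0.83 ± 0.26, adjusted p 0.0247), and here the array that stood apart was the highest of the group.

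The median member read 7.10 on the third wild-type array at 1 week, the one that stood apart, and 8.18 and 8.24 on its partners. Rps7 in wild-type cortex read 5.57 and 5.62 in controls and 6.73, 6.70 and 5.27 after 1 week, so the third array fell below both controls where its partners lay far above. Rpl10a read 5.62 and 5.63 in controls and 7.28, 7.17 and 5.83 after 1 week, so the third array lay far below its partners but above both controls. Without this array 30 members rose (of all genes 18.2%) and 0 fell, the median was 0.55 and 68 of 79 values lay above 0. Rpl10a then had the largest rise, 1.6, followed by Rps27l with 1.40 and Rplp0 with 1.38. The count was 1 and 0 without the first and second wild-type control, where 8.42% and 7.25% of all genes rose. Without the first treated array 3 rose and 1 fell (11% and 14.2% of all genes). With quantile normalization 24 members rose over all 3 arrays (14.7% of all genes), and 0 were called when only these 2 groups were fitted (5.25% of all genes rose).

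After 3 weeks in wild-type cortex, 0 members rose and 1 fell (1.27%), against 8.71% of all tested genes that rose and 5.51% that fell. The median was 0.11 (all tested genes -0.02), 53 of 79 values lay above 0, 20 genes (25.3%) had treated arrays all above the controls against 28.2% of all genes, and 6 members (7.59%) had an unadjusted p under 0.05, against 29.8% of all genes. The 1 call was a probe named in the files as Rpl10l, an intronless relative of Rpl10 that is used in testis in mice and humans. This probe matches no RefSeq gene, so the values below may not be those of that gene. Rpl10l read 0.72 and 1.42 in heterozygous controls, -0.25, -0.47 and -0.19 after 1 week and -0.55, -0.77 and 0.16 after 3 weeks. In wild-type cortex it read 1.04 and 1.18 in controls, 1.20, 0.24 and -0.76 after 1 week and -0.02, -0.92 and -1.53 after 3 weeks, and the fall at 3 weeks was -1.94 ± 0.50 (adjusted p 0.0197). All treated heterozygous arrays lay below the controls of that genotype as well, with changes of -1.37 at 1 week and -1.45 at 3 weeks that did not pass the test (adjusted p 0.113 and 0.062). The call was lost without either wild-type control or without the second or the third treated array. Without the wild-type array at 1 week that stood apart, 4 members rose at 3 weeks (Rpl29, Rpl10a and Rpl19 among them) and 3 fell (Rpl10l, Rps14 and Rpl36al1), with 13.9% and 10.3% of all genes. The median over the members was 0.77 with normexp background correction, and 12 members rose and 1 fell with quantile normalization (9.79% and 5.25% of all genes).

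For several paralogs the values differed from those of the gene they resemble, and no test compared them. The single probe of Rpl10l matches no RefSeq gene and lists no Ensembl transcript, so its identity rests on the name in the scanner files. It is listed on chr6:87929885-87929944, minus strand, of the rn4 build, and reads as follows.
Rpl10l probe: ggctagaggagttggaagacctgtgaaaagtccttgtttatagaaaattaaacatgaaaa
Rpl10, the broadly used gene of this pair, had log2 fold changes of 0.34 and 0.79 in heterozygous cortex at 1 and 3 weeks and 0.71 and 0.45 in wild-type cortex, none past the test, where the values of Rpl10l were negative. Rps27l, a relative of Rps27 that is a p53 target in human and mouse cells, read 3.73 and 4.00 in heterozygous controls, 5.09, 4.35 and 4.87 after 1 week and 5.02, 4.77 and 5.08 after 3 weeks. In wild-type cortex Rps27l read 4.01 and 3.76 in controls, 5.11, 5.46 and 4.20 after 1 week and 4.58, 4.35 and 4.46 after 3 weeks. Its 12 treated arrays lay above the controls of their genotype, and it rose by 1.09 ± 0.33 in heterozygous cortex at 3 weeks (limma, adjusted p 0.0379) and by 1.03 ± 0.33 in wild-type cortex at 1 week (0.0312). Rps27 itself had log2 fold changes of 0.01 and 0.62 in heterozygous cortex and -0.12 and 0.03 in wild-type cortex at 1 and 3 weeks, none past the test. Rpl36al1, named in the files as Rpl36al, had 0.02 and 0.17 in heterozygous and -0.48 and -0.56 in wild-type cortex, while its relative Rpl36a had 0.34 and 0.70 in heterozygous and 0.12 and -0.06 in wild-type cortex, again none past the test.

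Among the members, 5 had a negative value in heterozygous cortex at 3 weeks: Rpl10l, Rps14, Rpl32, Rpl36 and Rpl27. The chosen probes of Rpl10l and Rpl32 match no RefSeq gene. With the mean of a gene's probes in place of the brightest, 76 members in place of 74 were above 0. These and the genes in the rest of this paragraph were picked after their values were seen. Rps14, the small-subunit gene lost in the human 5q- syndrome, read 6.77 and 6.85 in heterozygous controls, 6.45, 6.33 and 6.36 after 1 week and 6.96, 6.21 and 6.25 after 3 weeks, with changes of -0.43 and -0.33. Its 2 other probes had -0.08 and 0.53 at 1 week and -0.02 and 0.62 at 3 weeks in heterozygous cortex, so the probes of Rps14 disagreed in sign. In wild-type cortex the changes of its brightest probe were -0.55 at 1 week and -0.86 at 3 weeks, and none of the 4 passed the test. Rpl9, a large-subunit protein, read 7.41 and 7.85 in heterozygous controls, 7.64, 6.91 and 7.05 after 1 week and 7.83, 8.05 and 8.33 after 3 weeks. In wild-type cortex it read 8.00 and 8.07 in controls, 7.65, 7.77 and 6.25 after 1 week and 7.77, 7.55 and 7.23 after 3 weeks, so all 6 treated wild-type arrays lay below both controls. Its 5 probes ran from -0.81 to -0.54 at 1 week and from -0.51 to 0.01 at 3 weeks in wild-type cortex, and from 0.44 to 0.72 in heterozygous cortex at 3 weeks, none of the chosen probe's values past the test. A list of 11 Diamond-Blackfan anaemia genes was used, which does not hold every gene known for this disease. It includes Rpl35a, whose probes carry another name in the files and are not among the members. In heterozygous cortex at 3 weeks all 11 listed genes were above 0 with a median of 0.60, and 2 of them rose, Rps7 and Rps19. Of 8 members with described roles outside the ribosome (Rps3, Rpsa, Rpl13a, Rps6, Rps27a, Rpl23, Rps14 and Rpl22), 1 rose, Rps6, and the median was 0.79. Over all members 19.0% rose in this comparison, and over all genes 9.37%.

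The probes of a gene mostly gave the same sign, least often in wild-type cortex at 3 weeks. Of 56 members with several passing probes, all probes had the same sign in 50 at 1 week and 52 at 3 weeks in heterozygous cortex, and in 45 and 38 in wild-type cortex. Probes of a gene called in both directions were possible only in wild-type cortex at 1 week, where 15 probes rose and 1 fell, and 0 genes had them. In the other comparisons with controls all calls went 1 way, so they cannot show such a conflict. Taken probe by probe, 38 of 197 passing probes rose in heterozygous cortex at 3 weeks and 0 fell. The share over all passing probes of the array is not given here, so this count has no background to be set against. The median range between probes of a gene was 0.21 and 0.16 on the log2 scale in heterozygous cortex at 1 and 3 weeks. It was 0.19 and 0.25 in wild-type cortex, where the median change of the members at 3 weeks was only 0.11. Near-identical copies of these genes are common in the rat genome, so a value may hold signal of a copy. Of the 79 chosen probes 2 list 2 or more RefSeq genes, and 36 list 2 or more Ensembl transcripts, which can belong to 1 gene. The chosen probes of Rpl10l, Rpl12, Rpl32 and Rps9 match no RefSeq gene and list no Ensembl transcript. For 7 of 78 genes the chosen probe is listed on another chromosome in rn4 than the gene in GRCr8, among them Rpl10a (probe on chromosome 4, gene on chromosome 20) and Rpl32. The 7 probes of Rpl32, a gene that RefSeq places on chromosome 4 in GRCr8, disagreed, and the cause was not tested. The brightest probe of Rpl32 matches no RefSeq gene and lists no Ensembl transcript, while the 6 others match Rpl32. Its brightest probe lies on chrX:42279403-42279462, minus strand, of rn4, and its 6 others on chromosome 6 of rn4, one of them at chr6:145183265-145183324, minus strand.
Rpl32 brightest probe: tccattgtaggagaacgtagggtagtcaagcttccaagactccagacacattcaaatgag
Rpl32 chromosome 6 probe: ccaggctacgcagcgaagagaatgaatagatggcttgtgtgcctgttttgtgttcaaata
In heterozygous cortex at 3 weeks the brightest Rpl32 probe had a log2 fold change of -0.31, while the 6 others had 0.46 to 0.81. In wild-type cortex at 3 weeks the brightest probe had -0.59 and the others -0.32 to -0.06. The negative value of Rpl32 in heterozygous cortex therefore holds for 1 probe of 7, which matches no RefSeq gene.

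Between 1 and 3 weeks the median change of the members in the main fit was positive in heterozygous and negative in wild-type cortex, without calls. In heterozygous cortex 0 of 79 members passed the test (0.306% of all genes, smallest adjusted p 0.364), 4 members (5.06%) had an unadjusted p under 0.05 against 11.7% of all genes, the median was 0.37 and 74 of 79 values were above 0. For 36 members (45.6%) all arrays at 3 weeks were above all arrays at 1 week, against 12.7% of all genes. In wild-type cortex 0 members passed (8.31% of all genes, smallest adjusted p 0.0605), 5 (6.33%) had an unadjusted p under 0.05 against 23.5% of all genes, the median was -0.13 and 19 of 79 were above 0. Other settings gave 0 to 2 calls in wild-type cortex and 0 in heterozygous cortex. Without the array that stood apart 3 members fell in wild-type cortex (Rpl10l, Rpl31 and Rps23), with 3.11% of all genes, and the median was -0.47. The sign of the wild-type median was not stable. With normexp background correction it was 0.10, with 58 of 79 above 0. Without the first or the second wild-type array at 1 week it was 0.006 or 0.044. Without the third wild-type array at 3 weeks it was 0.012. Rpl9, picked after its values were seen, was 0.87 higher at 3 weeks than at 1 week in heterozygous cortex (limma, adjusted p 0.373).

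**Figure D4:**
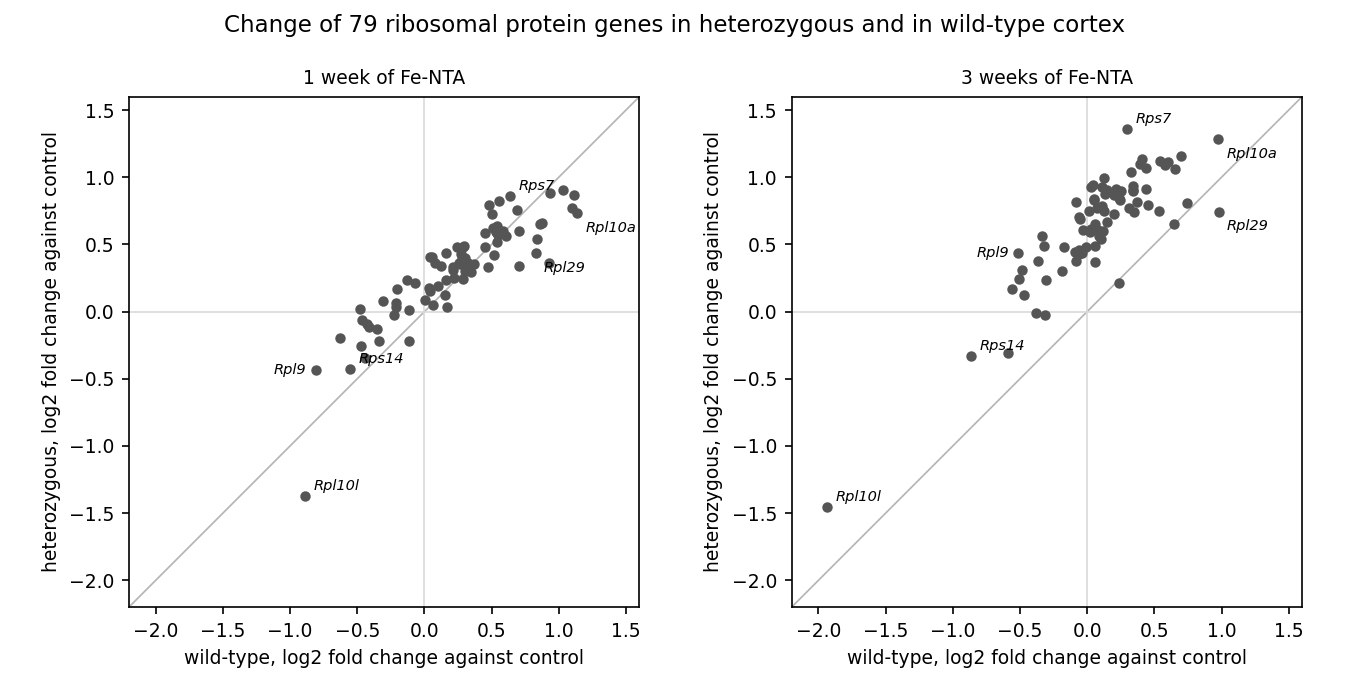
Log2 fold change against control of the 79 genes in heterozygous cortex (vertical axis) and wild-type cortex (horizontal axis), at 1 week on the left and 3 weeks on the right, with the line of equal change. At 1 week 54 of 79 points lie above the line, with medians of 0.36 in heterozygous and 0.26 in wild-type cortex, and at 3 weeks 77 of 79 do, with medians of 0.74 in heterozygous and 0.11 in wild-type cortex.

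Across the 79 members the log2 fold changes at 3 weeks in heterozygous and wild-type cortex correlated at 0.856 (Pearson's r) and 0.780 (Spearman's rho), and at 1 week at 0.880 and 0.895. These comparisons share no array, but all members share the scaling of each array, and genes are not independent replicates, so no p is given. The difference of size between the genotypes was not called for any member. For the interaction at 3 weeks, the heterozygous change minus the wild-type change, 0 of 79 passed the test (0% of all genes, smallest adjusted p 0.977), 1 had an unadjusted p under 0.05 (4.76% of all genes), and the median was 0.57 with 77 of 79 above 0. Rps6 had the smallest p, with 0.78 ± 0.34 (unadjusted p 0.0386, limma adjusted p 0.977), followed by Rpl38 (0.74), Rps7 (1.06) and Rps24 (0.87), small-subunit proteins apart from Rpl38. At 1 week the interaction median was 0.10 with 54 of 79 above 0 and 0 calls (0% of all genes, smallest adjusted p 0.835), and 0 members had an unadjusted p under 0.05 (7.6% of all genes). Without the wild-type array that stood apart it was -0.21, with 12 of 79 above 0. The 4 with the smallest p there included Rpl27 (0.38), Rpl36al1 (0.50) and Rps6 (0.32).

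Compared directly, heterozygous and wild-type cortex differed in 0 members under any condition by the adjusted p. In controls the median difference, heterozygous minus wild-type, was -0.22 (0% of all genes passed, smallest member adjusted p 0.999, 0 members and 4.61% of all genes at an unadjusted p under 0.05), 9 of 79 values were above 0, and in 56 members (70.9%) both heterozygous controls were below both wild-type controls, against 23.3% of all genes. At 3 weeks the median difference was 0.40 (0% of all genes passed, smallest adjusted p 0.809, 3 members and 5.82% of all genes at an unadjusted p under 0.05), 78 of 79 were above 0, and in 32 members (40.5%) all heterozygous arrays were above all wild-type arrays, against 12% of all genes. At 1 week the median was -0.10 with 16 of 79 above 0 and 0 calls (0.562% of all genes passed, smallest adjusted p 0.379). At an unadjusted p under 0.05 there was 1 member (12.6% of all genes). The sign of this median was not stable either. It was -0.45 without the array that stood apart, 0.02 and 0.10 without its first and second partner, and 0.14 with normexp. Rps7, in the same 3-week comparison, read 6.30, 6.74 and 6.96 in heterozygous and 6.37, 5.67 and 5.64 in wild-type cortex, a difference of 0.77 that did not pass the test and in which the first wild-type array lay within the heterozygous range. The control difference depended on the background correction: with normexp in place of the scanner software's subtraction, the median in controls was 0.40 with 79 of 79 above 0, and the median interaction at 3 weeks was 0.03 with 43 of 79 above 0.

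Other genes of translation were taken from lists that were chosen with earlier results of these data known. Of all tested genes 4.27% and 9.37% rose in heterozygous cortex at 1 and 3 weeks, and 12.8% and 8.71% in wild-type cortex. The shares that fell were 3.2% and 6.52% in heterozygous and 14.3% and 5.51% in wild-type cortex. Of 20 tested TOP mRNAs that encode no member (mostly translation factors), 1 rose in heterozygous cortex at 1 week, 4 at 3 weeks, 5 in wild-type cortex at 1 week and 1 at 3 weeks, with 1 fall, in wild-type cortex at 1 week. Their medians were 0.44 and 0.64 in heterozygous and 0.49 and 0.11 in wild-type cortex. Hnrnpa1, an RNA-binding splicing factor, rose by 1.30 and 1.5 in heterozygous cortex at 1 and 3 weeks and by 1.51 in wild-type cortex at 1 week (limma, adjusted p 0.0209, 0.00552 and 0.00233). Eef2, the factor that moves the ribosome along the mRNA, rose by 1.31 in wild-type cortex at 1 week (adjusted p 0.0045), and Rack1, a scaffold on the small subunit, by 1.16 (0.0166). Of 27 tested ribosome biogenesis genes, 2 rose in heterozygous cortex at 1 week, 1 at 3 weeks, 9 in wild-type cortex at 1 week and 1 at 3 weeks, and 0 fell, with medians of 0.43, 0.52, 0.57 and 0.47. Gar1, of the particles that modify ribosomal RNA, rose by 0.91 and 0.78 in heterozygous cortex at 1 and 3 weeks (adjusted p 0.0426 and 0.0491) and by 1.51 in wild-type cortex at 1 week (0.000539). The medians of the mitochondrial ribosomal proteins lay below 0. Of 71 tested, 0 rose in any of the 4 comparisons, 0 and 1 fell in heterozygous cortex and 21 and 6 in wild-type cortex at 1 and 3 weeks, with medians of -0.19, -0.13, -0.57 and -0.32. Mrpl15, a protein of the large mitochondrial subunit, fell by 0.90 in heterozygous cortex at 3 weeks (adjusted p 0.0398) and by 1.47 in wild-type cortex at 1 week (0.00122).

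**Figure D5:**
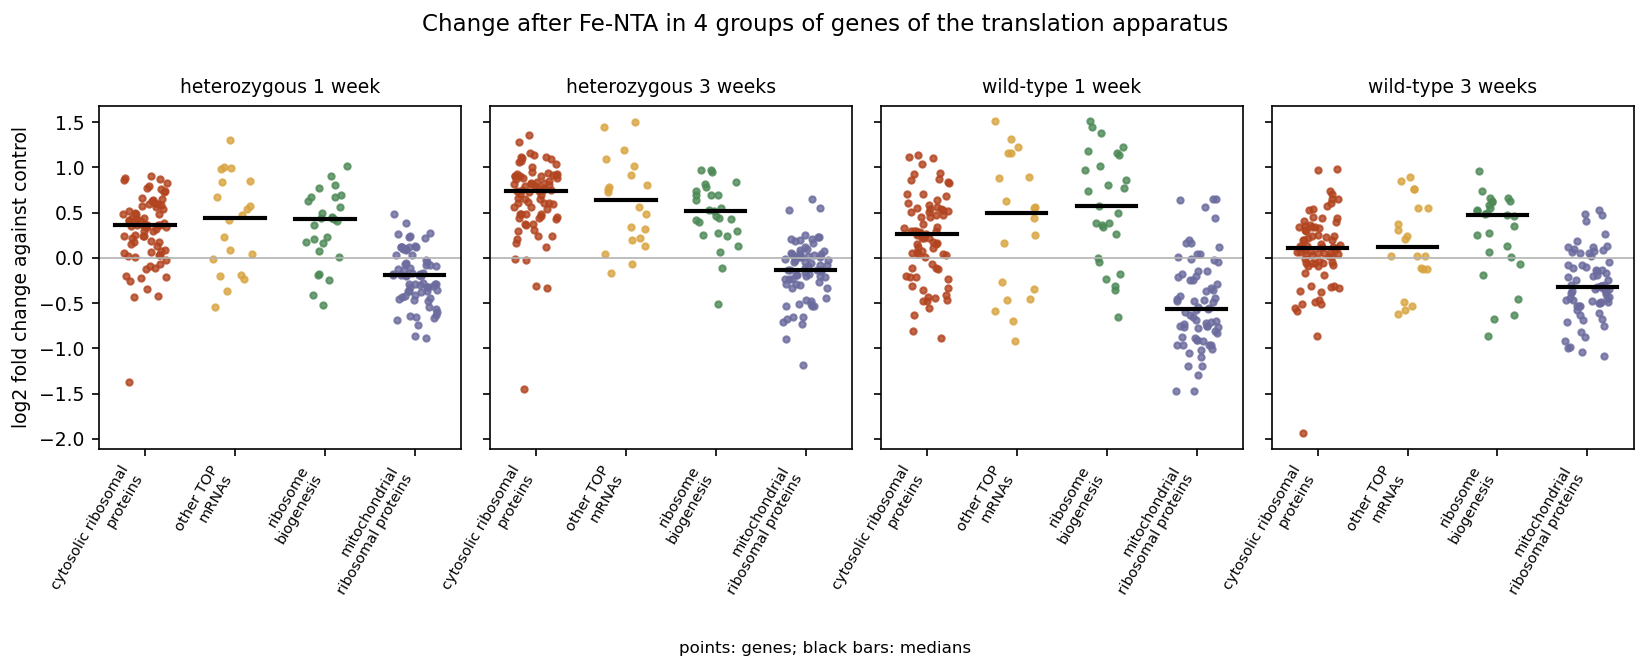
Log2 fold changes against control of the ribosomal protein genes (79), other mRNAs with a terminal oligopyrimidine tract (TOP, 20), ribosome biogenesis genes (27) and mitochondrial ribosomal proteins (71), in the 4 treatment comparisons. Each point is a gene, and the bars are medians, which for the ribosomal protein genes are 0.36 and 0.74 in heterozygous and 0.26 and 0.11 in wild-type cortex at 1 and 3 weeks and for the mitochondrial set -0.19, -0.13, -0.57 and -0.32.

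Markers of several cell types moved in the same comparisons, and the shares of all tested genes that rose or fell are those given above for the translation lists. Of 10 proximal tubule markers 5 and 6 fell in heterozygous cortex at 1 and 3 weeks and 10 and 5 in wild-type cortex, and their summed scaled signal was 506 to 1336 in heterozygous cortex at 3 weeks, against 3179 to 4125 in its controls. Of 9 tested macrophage markers 6 and 8 rose in heterozygous and 8 and 7 in wild-type cortex, with summed signals of 133 to 314 in heterozygous cortex at 3 weeks against 38.2 to 43.8 in its controls. Of 8 tested fibroblast markers 3 and 6 rose in heterozygous and 5 and 5 in wild-type cortex, with a summed signal of 102 to 183 at 3 weeks in heterozygous cortex against 29.8 to 36.1 in controls. Of 10 markers of proliferating cells 7 and 2 rose in heterozygous and 10 and 2 in wild-type cortex, with sums of 9.04 to 11.7 in heterozygous cortex at 3 weeks against 5.77 to 6.35 in controls. Of 9 erythroid genes 8 and 6 fell in heterozygous and 7 and 6 in wild-type cortex, with sums of 423 to 675 in heterozygous cortex at 3 weeks against 2177 to 2984 in its controls. On the wild-type arrays at 1 week the proximal tubule sum was 127 to 355, against 4039 to 4082 in controls, and the proliferation sum 34.5 to 47.7, against 6.21 to 6.59. Of 11 lymphocyte markers 4 could be tested and 0 were called, and Cd2 and Cd8a were well above background on 0 arrays. The part of these shifts in the values of the ribosomal protein genes was not tested.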

How the data were processed

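Cortex RNA of 16 samples was read on 1 single-colour array each. Per the file headers, the scanner files hold spot intensity values and flags (other columns) made with Agilent Feature Extraction 10.7 (named in the submitters' processing notes too), the processed signal being background-subtracted and not scaled between arrays. The authors' deposited table holds log2 values equal to that signal relative to each array's 75th percentile (correlations of at least 0.999985).

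Control spots and outlier spots were left out, spots of a probe were averaged, and log2 values were set against the 75th percentile of the array. A gene was read by its brightest probe that was well above background throughout at least 1 group, for members from member probes only. Symbols were updated by accession from RefSeq, which renamed 5 member probes. The 16024 genes were fitted with limma 3.58.1 in R 4.3.3 (6 group means, 10 residual and 4.868 prior degrees of freedom, two-sided), adjusted by Benjamini-Hochberg over all of them and called at an adjusted p under 0.05. The fit was tested on simulated data. Adjusted p-values without another name are from this fit.

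The comparisons were treatment against control and 3 against 1 week within genotype, the genotypes within a condition, and 2 interactions. Members and lists were chosen with earlier results of these data known. Named were the 6 largest called rises and falls per treatment comparison (4 for time and genotype), the 4 smallest p of each interaction, stalk, 5S and paralog genes, undetected members, and the 3 smallest p per companion list and treatment comparison. Alternatives were other background corrections, scalings, filters and probe summaries, slide and replicate blocks, single slides, fits of the compared groups only, the deposited table, and each array left out; an intensity trend and a median scaling were added after seeing the data. The 2 slides each held all 6 groups. The number of arrays limits the precision. Some genes named by the rule are not reported here, and counts include them.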

Additional observations from a re-analysis of the deposited data

How the results depend on the processing

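Counts are of members called, rises and falls together, in wild-type cortex at 1 week (6) and 3 weeks (1) and in heterozygous cortex at 1 week (1) and 3 weeks (15), in that order. Shares of all genes follow the same order. Quantile normalization gave 24, 13, 15 and 44, the 75th percentile over probes detected on all arrays 22, 5, 7 and 19, the median over those probes 10, 1, 2 and 17, no filter on dim probes 0 in all 4, every probe on its own 16, 1, 2 and 38, and only the compared groups 0, 5, 1 and 42, where the 1 call in heterozygous cortex at 1 week was a fall and the rise of Rpl6 was lost. With normexp the counts were 6, 1, 0 and 7 (of all genes 5.97%, 3.79%, 1.1% and 5.29% rose and 4.61%, 1.35%, 1.63% and 4.44% fell). Of the 6 normexp calls in wild-type cortex at 1 week, only 4 were also called in the main fit. The 1 normexp call in wild-type cortex at 3 weeks was a rise, so the fall of Rpl10l was lost. With the mean of a gene's probes the counts were 8, 1, 3 and 19. There 14.3%, 9.7%, 5.17% and 9.98% of all genes rose and 15%, 6.44%, 3.77% and 7.43% fell. Within slide 1 or 2 alone the counts were 0, except for 1 fall in heterozygous cortex at 3 weeks on slide 2. For 3 weeks against 1 week in wild-type cortex (0), quantile, median scaling and single probes gave 1, and the 75th percentile over detected probes and the mean of probes 2. Apart from the single probes, 4.86% to 5.85% of all genes rose in these fits and 3.12% to 3.56% fell. Leaving out 1 array of the compared groups gave 0 to 30, 0 to 1, 0 to 1 and 0 to 7, and 0 to 3 for wild-type 3 weeks against 1 week.

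The median log2 fold change moved by more than the spread between replicates with normexp in wild-type cortex at 1 week (0.66, in place of 0.26) and 3 weeks (0.77, in place of 0.11), in the control genotype difference (0.40, in place of -0.22) and in the interactions at 1 week (-0.29, in place of 0.10) and 3 weeks (0.030, in place of 0.57), and the cause was not tested. On slide 1 and slide 2 alone, with 1 or 2 arrays a group, it was 0.06 and 0.64 in wild-type cortex at 1 week, 0.21 and -0.76 for wild-type 3 weeks against 1 week, 0.28 and -0.62 for the genotypes at 1 week and 0.49 and -0.45 for the interaction at 1 week. Leaving out 1 array gave medians of 0.05 to 0.55 and -0.05 to 0.24 in wild-type cortex at 1 and 3 weeks, 0.25 to 0.46 and 0.69 to 0.77 in heterozygous cortex, -0.47 to 0.044 and 0.25 to 0.45 for time in wild-type and heterozygous cortex, -0.23 to -0.18, -0.45 to 0.10 and 0.23 to 0.56 for the genotypes in controls, at 1 week and at 3 weeks, and -0.21 to 0.28 and 0.44 to 0.72 for the interactions. The 75th percentile over detected probes also moved the median of all genes, most in wild-type cortex at 1 week (0.20, in place of -0.02).

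The replicate numbers do not pair the arrays: same-numbered arrays of different groups had deviations correlated from -0.338 to 0.445 (median 0.0259), and 7 of 16 arrays were closest to their own number. With the replicate block the counts were 7, 1, 0 and 18 (of all genes 12%, 8.71%, 3.65% and 10% rose and 12.4%, 4.67%, 2.31% and 6.23% fell). Of the 23 calls of single members, 23 passed with quantile normalization, the deposited table and the intensity trend, 19 with slide as a block, 10 with normexp and 0 with no filter or within a slide, and none changed sign under the alternatives run.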
